A study of Sus scrofa with 75 samples.

Results

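Cytosolic ribosomal protein genes encode the proteins of the large (RPL) and small (RPS) subunits of the ribosome outside the mitochondria. They were taken as all genes whose annotated name starts with RPL or RPS followed by a digit and holds no K, which leaves out the ribosomal S6 kinases. The rule found 59 of the 35798 genes in the expression table, 34 named RPL and 25 named RPS, on 16 chromosomes. It also took in RPS19BP1, which encodes a protein that binds RPS19 and is not itself a part of the ribosome. The names RPLP0, RPLP1, RPLP2, RPSA, FAU and RACK1, which also belong to ribosomal proteins, fall outside the rule and are given beside the members. The samples were heart, kidney, liver, lung and spleen of male pigs aged 12 months in 2 groups, BS and DSE. The labels do not say what these codes stand for, and give no treatment, genotype or batch. Each group had 4 animals, whose number was read from the sample titles, and each animal gave 1 ribosomal RNA-depleted short-read library per organ, 40 in all. Each group also had 1 long-read library per organ, 10 in all and without replicates inside a group. Another group, DT, was not analysed here.

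Ribosomal proteins are made in step with one another because each ribosome holds nearly all of them in equal number. In mammals their messages carry a run of pyrimidines at the 5′ end, the TOP motif, through which growth signals set their translation. Members are therefore known as abundant, broadly expressed genes, with a few tissue-restricted copies that replace a widely used parent.

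The organ labels matched their defining markers. Summed heart muscle markers (MYH7, MYL2, TNNT2, ACTC1 and MYH6) lay between 26164 and 36362 TPM in heart and at no more than 152 TPM in any other library. That 152 TPM came from 1 BS liver. Summed hepatocyte markers reached 945 TPM in 1 kidney, against 50578 TPM or more in liver. TPM, a level per transcript length that sums to 1000000 in each library, is a share of each library, so short-read depth is unknown and a gene's TPM depends on what else the library holds. Full-length reads per long-read library ranged from 119623 to 456783. Genes of the mitochondrial genome took 38.2% ± 4.34 of the TPM in heart and 6.87% ± 1.68 in spleen (SD, n = 8 each). Scaling the libraries to each other by their median ratio over 8882 genes divided heart libraries by 0.599 to 0.731 and lung libraries by 1.19 to 1.66. Directions between organs are therefore given on both scales.

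Most members were among the abundant messages of every organ. Averaged over the 40 libraries, 52 of 59 members exceeded 100 TPM and 34 exceeded 1000 TPM. The highest were RPS24 at 3638 TPM, RPL23 at 3400 TPM and RPL27A at 3301 TPM. The lowest were RPL10L, RPL7L1 and RPS27L, all copies of other members. RPL10L, a copy of RPL10 that mouse and human testis express, was listed at 0 in all 40 libraries and did not enter the tests. RPL7L1, whose product acts in ribosome assembly, averaged 14.6 TPM, and RPS27L, a copy of RPS27 known as a p53 target in human cells, averaged 22.7 TPM. Of the 58 members above 0, 51 had their highest mean in spleen and 41 had their lowest mean in liver.

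Together the members took 11.8% ± 1.32 of the TPM in spleen, 9.97% ± 0.865 in lung, 6.88% ± 0.825 in heart, 5.96% ± 0.535 in kidney and 5.29% ± 0.697 in liver (SD, n = 8 each). Their summed level was lowest at 104626, at the median 113510 and highest at 138441 TPM over the 8 spleens. Over the 8 lungs it was 85256, 99397 and 110949 TPM in the same order. Spleen and lung overlapped, and every spleen and lung lay above every other organ. The 8 hearts had 53228, 72953 and 76411 TPM, the 8 kidneys 51860, 60228 and 65558 TPM, and the 8 livers 41703, 54328 and 62486 TPM. Heart, kidney and liver overlapped. The order changed with the scale: after median-ratio scaling the mean sum was highest in heart, at 107797, followed by spleen at 90288, liver at 83886, lung at 67966 and kidney at 49574. In these bulk samples more cells of a type and more RNA per cell cannot be told apart. Summed RPL over summed RPS levels stayed within 1.15 and 1.46 in all 40 libraries, with means of 1.38 ± 0.084 in heart and 1.27 ± 0.021 in spleen (SD, n = 8 each). In these 2 organs the pig groups did not overlap. The ratio was 1.27 to 1.36 in BS and 1.43 to 1.46 in DSE hearts, and 1.24 to 1.26 in BS and 1.27 to 1.30 in DSE spleens. The groups overlapped in kidney, liver and lung, and the difference was not tested.

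**Figure D1:**
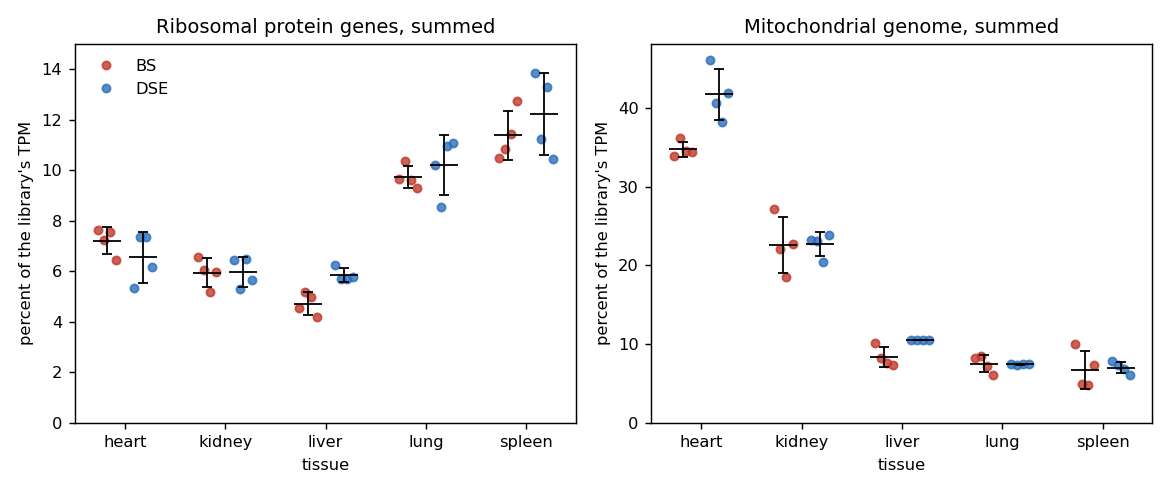
Summed TPM of the 59 members (left) and of the mitochondrial genome (right), in percent of each library, for the BS and DSE animals of each organ. Points are libraries and bars are means ± SD (n = 4). Spleen and lung lie above the other organs on the left, and heart reaches 46.0% on the right. After median-ratio scaling the order on the left changes, with heart highest.

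All 58 tested members differed between the 5 organs (limma moderated F test on log2(TPM + 1), Benjamini-Hochberg adjusted over all tested genes), as did 99.2% of the 16481 genes tested. Each organ was then set against the mean of the other 4, with a call at an adjusted p of at most 0.05 and at least 1.5-fold. In spleen 48 of 58 members were higher and 1 was lower, against 37.0% higher and 18.9% lower over all genes. In lung 19 members were higher and 1 was lower, against 53.4% and 9.78% of all genes. In liver none was higher and 43 were lower, against 10.5% and 60.5%. In kidney 3 were higher and 8 lower, against 29.4% and 19.7%, and in heart 1 was higher and 8 lower, against 10.9% and 55.2%. The members' median log2 difference was 0.82 in spleen, 0.54 in lung, -0.24 in heart, -0.40 in kidney and -0.73 in liver. Over all tested genes the medians were 0.31, 0.64, -0.69, 0.16 and -0.76 in the same order, so that the members' median minus that of all genes was 0.51 in spleen, -0.10 in lung, 0.45 in heart, -0.56 in kidney and 0.03 in liver.

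Median-ratio scaling changed these counts more than any other choice. On that scale heart had 21 members higher and 1 lower, kidney 1 and 48, liver 7 and 0, lung 0 and 3, and spleen 7 and 2. The matching shares of all genes, higher then lower, were 22.0% and 28.1% (heart), 20.4% and 25.2% (kidney), 19.6% and 30.7% (liver), 24.3% and 18.1% (lung), and 20.4% and 26.9% (spleen). The members' median minus that of all genes was then 0.72 in heart, 0.40 in spleen, 0.31 in liver, -0.23 in lung and -0.65 in kidney (log2). The sign of this distance was the same on both scales in all 5 organs, largely by construction, since scaling shifts every gene of a library. With genes of the mitochondrial genome taken out, the distance in liver was -0.02. The median of all genes itself moved from one scale to the other by 0.51 log2 units in heart, 0.53 in liver, -0.27 in kidney, -0.40 in spleen and -0.59 in lung. With genes of the mitochondrial genome taken out and TPM rescaled, 32 members were higher in spleen (28.7% of all genes), 3 in lung (43.1%) and 8 in heart (16.8%). In liver 48 were then lower and none higher, against 75.5% of all genes called in either direction. The interquartile range of the members was 0.23 to 0.31 log2 units in each organ on the TPM scale, against 0.92 to 1.21 log2 units over all tested genes. No test was made of this difference in spread.

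**Figure D2:**
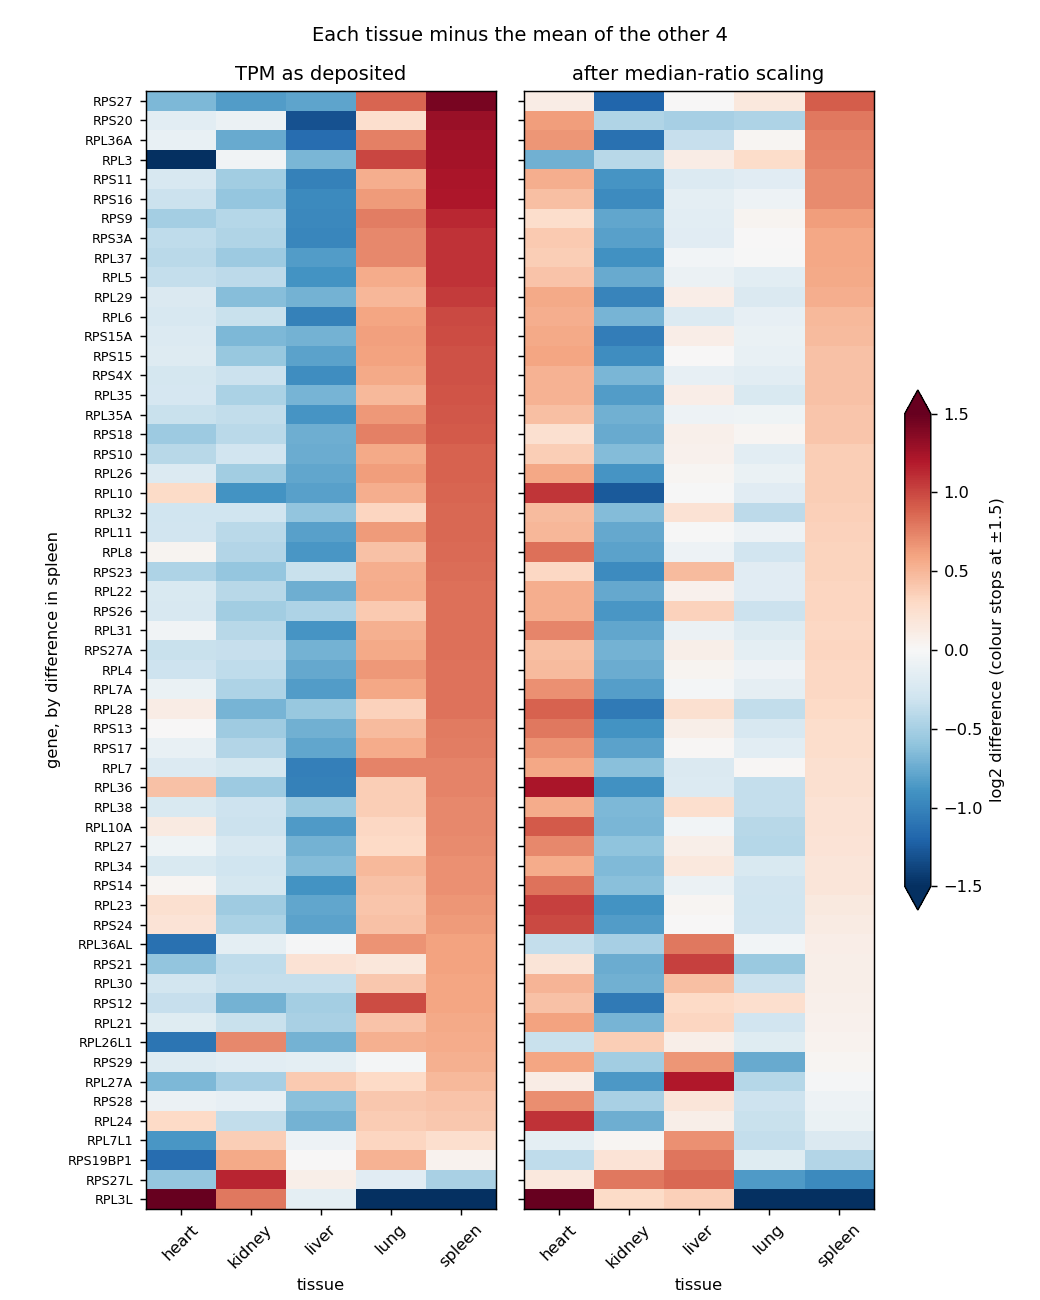
Log2 difference of 57 of the 58 tested members (rows) in each organ against the mean of the other 4 (columns), on deposited TPM (left) and after median-ratio scaling (right). The columns are nearly uniform in colour on each side, and the heart, liver and lung columns change colour between the sides. RPL3L, RPL3, RPS27L and RPL27A depart from their columns.

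Among the members that were higher in spleen, those with the largest differences were RPS27, RPS20 and RPL36A, with RPS27 and RPS20 in the small subunit and RPL36A in the large one. RPS27 was lowest at 625 TPM, at the median 907 TPM and highest at 1294 TPM over the 8 spleens, a log2 difference of 1.42 ± 0.11 (SE, limma adjusted p = 6.03e-14). In the other organs RPS27 lay between 131 and 941 TPM, so spleens and lungs overlapped. RPS20 had a log2 difference of 1.30 ± 0.12 (SE, limma adjusted p = 1.62e-11) in spleen and of -1.30 ± 0.12 (SE, limma adjusted p = 9.82e-12) in liver. Its 8 livers held 306, 401 and 533 TPM as the lowest, median and highest, against 1312, 1955 and 2214 TPM in the 8 spleens, and the organs did not overlap. RPL36A, which is X-linked, differed by 1.27 ± 0.08 in spleen, -1.15 ± 0.08 in liver and -0.75 ± 0.08 in kidney (log2, SE). The liver calls of RPS20, RPL36A and RPL7 were lost after median-ratio scaling. In lung the largest were RPL3 at 0.999, RPS12 at 0.97 and RPS27 at 0.88 log2 units, and none of these kept its call after median-ratio scaling. RPL10, a large-subunit protein that joins the particle late, was the lowest in kidney at -0.90 ± 0.08 (SE, limma adjusted p = 5.01e-13), and RPL7, a large-subunit protein, fell by 1.02 in liver on the log2 scale. In heart RPL36AL and RPS19BP1 were lower by log2 differences of -1.12 ± 0.07 and -1.15 ± 0.09 (SE), calls that were lost after median-ratio scaling. By subunit, 27 of 33 tested RPL genes and 21 of 24 RPS genes were higher in spleen, and 25 of 33 and 18 of 24 were lower in liver.

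On the TPM scale, markers of other cells and growth-related genes moved with the same organs as the members. T cell markers summed to 398 to 902 TPM in spleen, 86.5 to 183 TPM in lung and at most 32.0 TPM in the other organs. All 11 genes found of 12 on a cycling-cell list were higher in spleen and in lung, on both scales, with median log2 differences of 2.23 and 1.91 on TPM. The members did not keep this match after median-ratio scaling. In lung 0 members were then higher and 3 lower. In heart 21 members were higher, whereas 10 of the 11 cycling-cell genes were lower. Erythroid markers summed to 684 to 29338 TPM in spleen and 1068 to 13781 TPM in lung, against at most 1891 TPM in the other organs. The part of these cells in the organ differences was not tested.

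To ask which genes departed from the family itself, libraries were scaled to the median member, a step chosen after seeing the data. On that scale 7 members departed by at least 1.5-fold in heart, against 59.6% of all genes. Liver had 7 (50.9%), kidney 5 (61.7%), spleen 4 (50.1%) and lung 2 (45.1%). This scaling centres the libraries on the members and not on other genes. Lower counts among members than over all genes were thus in part fixed in advance. Those above the family in heart were RPL3L, at a log2 difference of 5.47, and RPL36, a large-subunit protein, at 0.69. Those below it in heart were RPL3, RPS19BP1, RPL36AL, RPL26L1 and RPL7L1. In liver RPL27A at 1.12 and RPS21 at 0.95 led, followed by RPS27L, RPS19BP1, RPL36AL, RPL7L1 and RPS29. In kidney RPS27L at 1.52 and RPL26L1 at 1.104 led, followed by RPL3L, RPS19BP1 and RPL7L1. Most of these are copies of other members or are not ribosomal proteins. The exceptions were RPL3 and RPL36 in heart, RPL27A, RPS21 and RPS29 in liver, and RPS27 in spleen.

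RPL3L and its parent RPL3 ran in opposite directions in heart. RPL3 is a large-subunit protein close to the site of peptide bond formation, and RPL3L takes its place in ribosomes of mouse and human striated muscle. RPL3L (chromosome 3, 40005091 to 40016699, plus strand, susScr11) measured 142, 152, 172 and 174 TPM in BS hearts, against 91.4, 105, 115 and 151 TPM in DSE hearts. The groups overlapped at 1 DSE heart. Outside heart, RPL3L lay between 7.81 and 11.5 TPM in kidney, between 4.23 and 6.47 TPM in liver, and at no more than 0.652 TPM in spleen and 0.276 TPM in lung. Hearts did not overlap any other organ, and the log2 difference of heart from the other organs was 5.41 ± 0.07 (SE, limma adjusted p = 1.75e-36). The liver library that held heart muscle markers had the lowest RPL3L of the 8 livers, at 4.23 TPM. RPL3 (chromosome 5, 8922665 to 8929767) measured 322, 346, 420 and 432 TPM in BS hearts, against 235, 248, 258 and 258 TPM in DSE hearts. The hearts lay below all kidneys, lungs and spleens and overlapped with livers, whose lowest RPL3 value was 371 TPM. The log2 difference of RPL3 in heart was -1.51 ± 0.06 (SE, limma adjusted p = 5.61e-23). It fell on the median-ratio scale as well. RPL3L made up 30.6% ± 4.04 of the summed RPL3 and RPL3L TPM in heart, 1.39% ± 0.311 in kidney, 1.097% ± 0.298 in liver, 0.0309% ± 0.0152 in spleen and 0.00891% ± 0.00643 in lung (SD, n = 8 each). TPM is a level per transcript length, so these shares compare the 2 genes on the same scale. In long reads RPL3L exceeded RPL3 in heart, the reverse of the order in TPM: the BS heart library held 126 reads of RPL3L and 78 of RPL3, and the DSE heart library 51 of RPL3L and 35 of RPL3. The other 8 long-read libraries held 0 to 4 RPL3L reads each. RPL3L overlaps NDUFB10 on the opposite strand, and whether the short-read tables were made with regard to strand is not given in the sources used here.

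**Figure D3:**
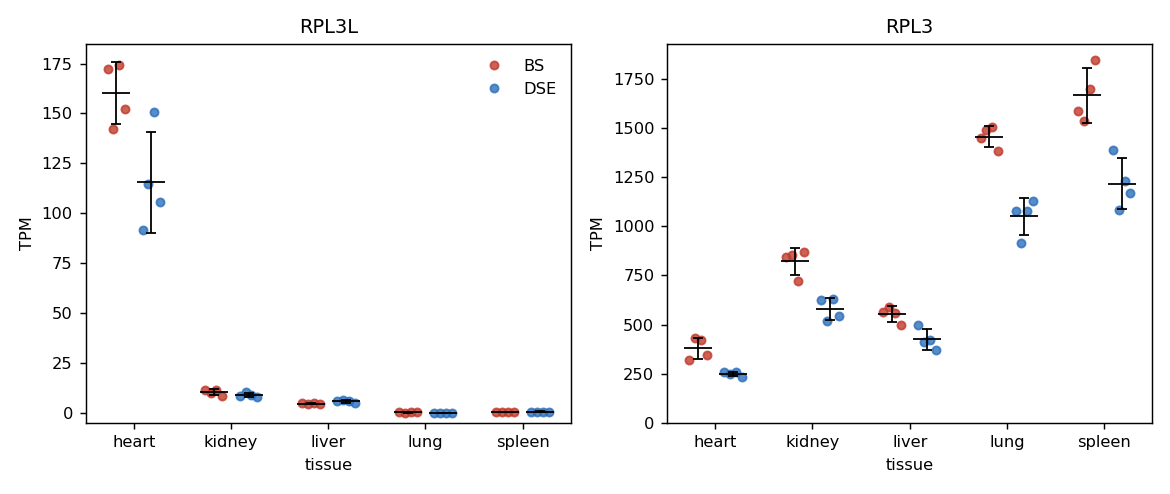
TPM of RPL3L (left) and RPL3 (right) in each library of the BS and DSE animals, by organ, with means ± SD (n = 4). RPL3L is above 90 TPM in all 8 hearts and below 12 TPM elsewhere, and RPL3 has its lowest mean in heart.

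In short-read TPM the other copies were the smaller part of their pairs in the organ means given here. RPS27L, set beside RPS27, made up 13.5% ± 1.42 of the pair in kidney and 1.72% ± 0.253 in spleen. RPS27L itself measured 29.3, 41.4 and 53.3 TPM as the lowest, median and highest of 8 kidneys, above all other organs, with a log2 difference of 1.15 ± 0.07 (SE, limma adjusted p = 2.71e-16). In full-length reads the order of this pair was the reverse, with 200 reads of RPS27L and 96 of RPS27 over the 10 libraries and at least as many of RPS27L as of RPS27 in each. RPL26L1, a close copy of RPL26, made up 7.17% ± 0.912 of its pair in kidney and 2.28% ± 0.417 in heart, and rose in kidney by 0.72 ± 0.05 (log2, SE, limma adjusted p = 3.38e-15). That call was lost after median-ratio scaling. RPL36AL, an autosomal copy of the X-linked RPL36A, made up 17.3% ± 0.483 of its pair in liver and 6.04% ± 1.25 in heart. RPL7L1 made up 0.555% to 1.41% of its pair with RPL7 over the organ means. All these shares are means ± SD over 8 libraries. RPS27A, which encodes ubiquitin fused to a small-subunit protein, averaged 229 TPM and was highest in spleen at 344 TPM and lowest in liver at 146 TPM. Copies as similar as these, and processed copies elsewhere in the genome, can share short reads, so levels of single pairs are uncertain.

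Among the members RPL27A had the largest log2 difference in liver on both scales, at 0.39 on TPM, which did not reach 1.5-fold, and at 1.20 after median-ratio scaling, where 7 members were higher and none lower. RPL27A (chromosome 9, 707693 to 711245), a large-subunit protein, had 3181, 4106 and 4508 TPM as the lowest, median and highest of 8 livers, against 1670, 2267 and 2475 TPM in hearts and 2074, 2390 and 2931 TPM in kidneys. Livers overlapped with lungs and spleens, and all lay above hearts and kidneys. RPS21, a small-subunit protein, had a median of 1802 TPM in liver, against 1079 TPM in heart and 1228 TPM in kidney. Full-length reads of RPL27A came to 205 per 1000000 reads in BS liver and 472 in DSE liver. On the same scale BS heart had 130, DSE heart 107, BS kidney 91.9 and DSE kidney 131. RPL27A overlaps an unnamed gene on the same strand.

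The transcripts used also depended on the organ in 3 members. Usage is the share of a gene's TPM that 1 transcript takes. It was tested for 87 transcripts of 49 members with limma's moderated F test on log ratios, and a call needed an adjusted p of at most 0.05 and organ means at least 20 points of percent apart. Calls fell on 8 transcripts, 5 of RPS24, 2 of RPS14 and 1 of RPL28, against 12.4% of all 16638 transcripts tested. RPS24 is a small-subunit protein whose gene is known from human Diamond-Blackfan anaemia and ends in small alternative exons.

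RPS24 (chromosome 14, 80473928 to 80480818, plus strand, susScr11) drew on its transcripts in other shares in heart than in the other organs. Its transcripts differ by an exon of 3 nt (80477861 to 80477863), an exon of 18 nt (80478366 to 80478383) that 1 long-read transcript extends to 38 nt, and an exon of 22 nt (80480327 to 80480348). The annotated coding lengths include 393, 396 and 399 nt. Transcripts with the 18- or 38-nt exon took 80.2%, 80.5%, 80.8% and 81.3% of RPS24 TPM in BS hearts, against 82.6%, 82.6%, 84.1% and 87.6% in DSE hearts. The same share was at most 0.242% in kidney, 1.23% in liver and 1.79% in lung. In spleen it was 25.1%, 25.4%, 25.4% and 27.3% in BS animals, against 3.31%, 7.81%, 10.4% and 17.2% in DSE animals, and the groups did not overlap. The difference between BS and DSE spleens in usage was not tested.

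In heart the share was split between ENSSSCT00000066963, at 41.5% ± 4.04, and ENSSSCT00000096351, at 40.9% ± 2.86 (SD, n = 8). The model of ENSSSCT00000066963 stops at the 18-nt exon, and it held nearly all of the share in spleen, at 16.7% ± 9.93, where ENSSSCT00000096351 took 1.03% ± 0.629. ENSSSCT00000028532, which has the 3- and 22-nt exons and stops at the 22-nt exon, took 60.04% ± 3.90 in kidney, 53.2% ± 5.30 in liver, 39.4% ± 3.89 in lung, 5.0% ± 0.856 in spleen and 0.517% ± 0.272 in heart. ENSSSCT00000104893, which has none of the 3 small exons, took 27.6% ± 4.94 in spleen and at most 9.67% elsewhere. PB.17498.10, a long-read transcript with the 22-nt exon, took 49.4% ± 3.51 in lung and 16.2% ± 2.49 in heart. The adjusted p-values of these 5 transcripts ran from 2.15e-26 to 1.37e-16 (limma). The models differ by few bases, and how well short reads separate them was not tested. Among full-length reads, the transcript with the 38-nt exon, PB.17498.9, took 64 of 133 RPS24 reads in BS heart (48.1%, 95% exact binomial interval 39.4 to 56.9%) and 42 of 85 in DSE heart (49.4%, 38.4 to 60.5%). Outside heart it took 0 of 655 reads, which allows a share of up to 0.458%. Intervals and this limit cover counting error only. Its own short-read share was only 0.00376% in heart. Of the 15 RPS24 long-read transcripts counted, 7 were in the annotation, and the exons of the others were not used here.

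**Figure D4:**
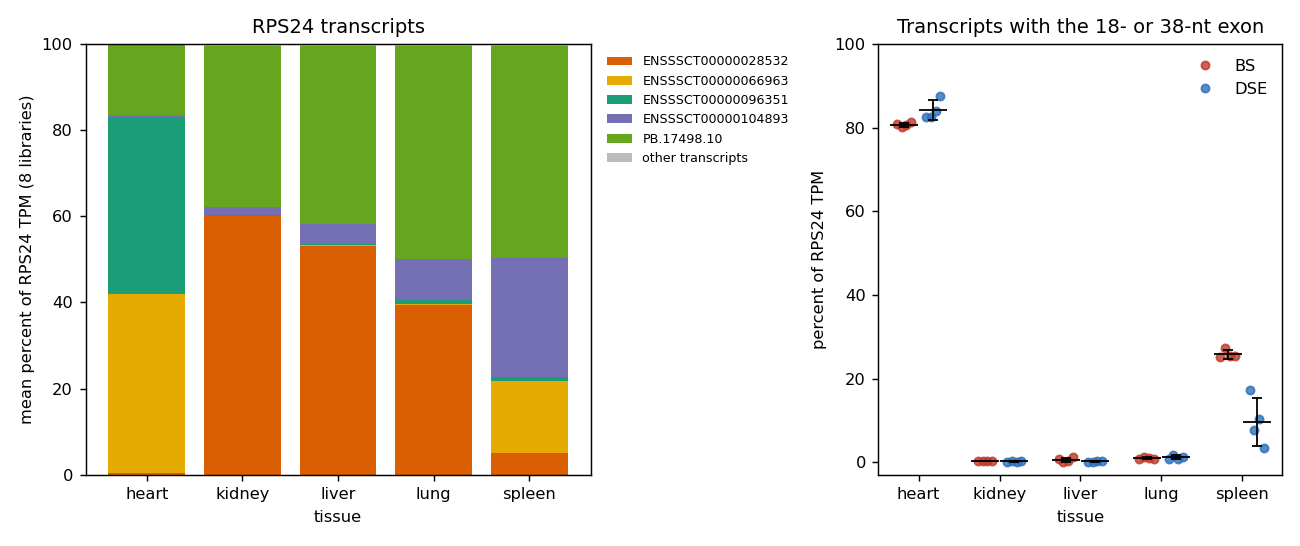
Mean share of RPS24 TPM by transcript in each organ over 8 libraries (left), and the share of transcripts with the 18- or 38-nt exon in each BS and DSE library with means ± SD, n = 4 (right). That exon's share is above 80% in every heart and below 2% in every kidney, liver and lung.

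RPL28 and RPS14 moved less. RPL28, a large-subunit protein, drew 59.02% ± 4.04 of its TPM from ENSSSCT00000048452 in heart, against 34.9% ± 5.92 in spleen (SD, n = 8, limma adjusted p = 5.88e-13). RPS14, a small-subunit protein, drew 37.5% ± 9.38 from PB.3815.12 in lung and 39.97% ± 12.0 in spleen, against 56.7% to 60.7% in heart, kidney and liver. The longer PB.3815.13 took 53.4% in lung and 52.1% in spleen and from 33.2% to 37.6% in the others. Both RPS14 transcripts have 456 nt of coding sequence, so the shift did not change the coding length. These shares also lay apart by pig group. PB.3815.12 took 39.0% to 52.4% in BS and 26.6% to 33.1% in DSE lungs. In spleen it took 41.0% to 58.6% in BS and 22.8% to 33.8% in DSE animals. ENSSSCT00000048452 took 39.5% to 41.9% in BS and 27.6% to 32.2% in DSE spleens. The pig group difference in usage was not tested.

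Full-length reads were counted for 45 of 59 members, and 43 passed the filter on low counts. Between organs, 22 of these 43 differed (edgeR quasi-likelihood test with pig group as a term, adjusted p of at most 0.05), against 68.9% of all 4110 genes tested. DESeq2's likelihood ratio test called 12. The members with most reads were RPL4 (2414 reads), RPS3A (1257), RPL3 (1196), RPL10 (1072) and RPL23 (971). RPL4, a large-subunit protein, did not pass (adjusted p = 0.75), nor did RPS3A (adjusted p = 0.226), whereas RPL3L did (adjusted p = 3.21e-35). Summed members took 1.12% of the reads in BS spleen and 1.98% in DSE spleen, 0.956% and 1.55% in BS and DSE lung, 0.496% and 0.980% in BS and DSE liver, 0.566% and 0.743% in BS and DSE kidney, and 0.798% and 0.685% in BS and DSE heart. Heart was the organ where the BS share was the higher one, and DSE liver lay above DSE heart and DSE kidney, unlike in short reads. These percentages are a small fraction of the short-read ones, and members such as RPS23 and RPL5 had no long-read transcript. With 1 library per group and organ the percentages have no replicate check.

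BS and DSE animals differed in many members, and the differences ran both ways. Over the 5 organs, on 1 mean per animal, 13 of 58 members were higher and 25 lower in BS (limma, adjusted p of at most 0.05, no minimum fold), against 27.2% and 32.6% of all 15118 genes tested. The share called among members, 38 of 58, was close to the 59.9% over all genes. The median difference was -0.05 log2 units among members and -0.06 over all genes. No label gives a batch, so pig group and any difference in handling, library preparation or sequencing cannot be told apart. Where nothing says how animals were raised or tissues pooled, p-values measure only the spread between these samples.

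Of 57 members tested in each organ, 5 were higher in BS in all 5 organs, among them RPL8, RPL28, RPS9 and RPL3, and RPS23, RPL35A and RPL22 were lower in all 5. Over all genes, 9.83% were higher and 5.25% lower in all 5 organs, and the members' counts lay close to these shares. RPL8, a large-subunit protein near the catalytic centre, measured 1368, 1404, 1479 and 1500 TPM in BS hearts, against 652, 711, 805 and 903 TPM in DSE hearts. In spleen it measured 1945, 2075, 2350 and 2441 TPM in BS animals, against 1063, 1066, 1312 and 1505 TPM in DSE animals. No BS value overlapped a DSE value in any organ, and the log2 difference over organs was 0.83 ± 0.06 (SE, limma adjusted p = 1.69e-05). RPL28 measured 283, 309, 314 and 323 TPM in BS hearts, against 128, 149, 164 and 175 TPM in DSE hearts. It also did not overlap in any organ, with 0.85 ± 0.07 over organs (SE, limma adjusted p = 2.11e-05).

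RPS9, a small-subunit protein that lines the messenger entry channel, differed by 0.62 ± 0.08 log2 units over organs (SE). RPL3 differed by 0.48 ± 0.06. RPL3 was apart in all 5 organs and RPS9 in 4 of 5, the exception being liver. RPS23, a protein of the decoding centre of the small subunit, went the other way. It measured 552, 692, 861 and 1223 TPM in BS livers, against 1645, 1678, 1853 and 1858 TPM in DSE livers, and was apart in all 5 organs. Its difference over organs was -0.96 ± 0.10 (log2, SE, limma adjusted p = 5.20e-05). RPL35A, a large-subunit protein also known from Diamond-Blackfan anaemia, measured 2002, 2785, 2791 and 3304 TPM in BS spleens, against 4278, 4317, 5085 and 5621 TPM in DSE spleens. It differed by -0.72 ± 0.05 over organs (SE, limma adjusted p = 1.83e-05) and was apart in all 5 organs. RPL22, an RNA-binding protein that bulk translation in mouse does not need, differed by -0.50 ± 0.06. RPS27A and RPS27L completed the 5 lowest adjusted p-values among the lower members, at -0.46 ± 0.05 and -0.54 ± 0.09 log2 units (SE). After median-ratio scaling 17 members were higher and 18 lower over organs, against 31.9% and 28.2% of all genes, and RPL8, RPL28, RPS9, RPL3, RPS23 and RPL35A kept their calls in all organs, whereas RPL22 lost them in heart and lung. Scaled to the median member, 19 were above and 22 below, against 28.9% and 25.5% of all genes, a near-even split that this scaling favours by construction.

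**Figure D5:**
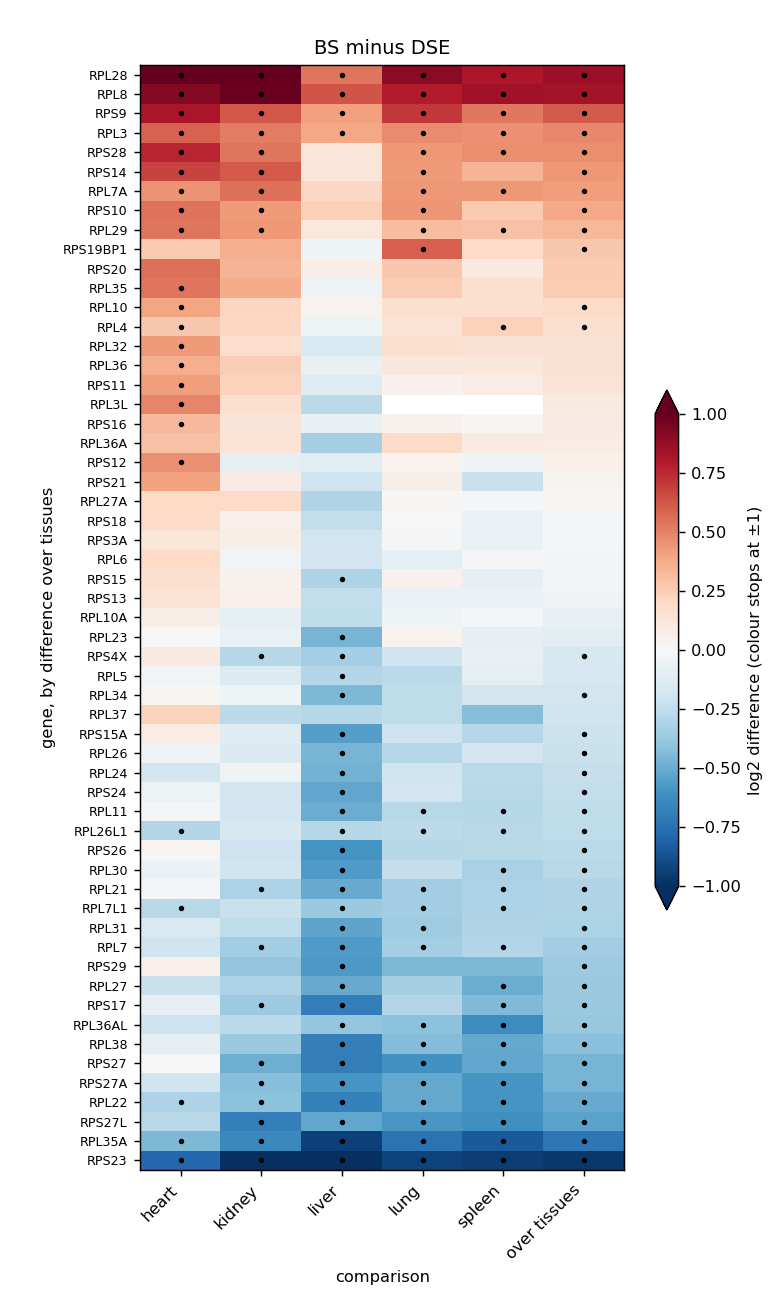
BS minus DSE log2 difference of 57 tested members (rows) in each organ and over organs (columns), with a dot where the adjusted p was at most 0.05. Genes at the top are higher and genes at the bottom lower in BS in nearly every column, and blank cells were not tested.

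Within single organs the balance differed. In heart 19 members were higher and 5 lower in BS, against 22.2% and 11.1% of all 12283 genes. Genes of the mitochondrial genome took 34.7% ± 0.964 of the TPM in BS hearts and 41.7% ± 3.24 in DSE hearts (SD, n = 4 each), and without them 10 members were higher and 11 lower, against 14.9% and 23.2% of all genes. Without DSE animal 1 there were 11 higher, and the 5 lower fell to 2 without DSE animal 2 and to 3 without BS animal 1, BS animal 4 or DSE animal 3. In kidney 10 were higher and 10 lower, against 23.9% and 21.5%, with 6 lower without DSE animal 3 and under the replicate block. In liver 5 were higher and 28 lower, against 23.5% and 12.9%, with a median of -0.29 among members and 0.04 over all genes. In lung 11 were higher and 14 lower of 57 tested, against 18.5% and 37.0%, and in spleen 9 were higher and 16 lower of 57, against 14.5% and 21.3%. In spleen the number lower was 7, 8, 9 or 10 without DSE animal 1, DSE animal 3, BS animal 1 or BS animal 3. Median-ratio scaling moved the median of all genes by 0.21 log2 units in lung and 0.12 in spleen. The lung split then turned to 15 higher and 3 lower (27.3% and 26.0% of all genes), and the spleen split to 10 higher and 6 lower (35.4% of all genes called in either direction). In liver the split stayed at 5 higher and 28 lower on that scale (43.7% of all genes called in either direction). Summed members came to 41703, 45430, 49853 and 51740 TPM in BS livers, against 56916, 56957, 57785 and 62486 TPM in DSE livers, without overlap. The mitochondrial genome took 8.33% ± 1.26 of the TPM in BS livers and 10.5% ± 0.0273 in DSE livers (SD, n = 4 each). Means were 72155 ± 5472 TPM in BS hearts and 65486 ± 9962 TPM in DSE hearts, and 113791 ± 9844 TPM in BS spleens and 122166 ± 16181 TPM in DSE spleens (SD, n = 4 each), with overlap in both organs. Most marker sums overlapped between the groups, and those that did not were found in 3 organs. With many sums compared and 4 animals per group, some can lie apart by chance. In liver, T cell markers summed to 23.2 to 32.0 TPM in BS and 16.7 to 22.8 TPM in DSE animals. Cycling-cell markers summed there to 2.90 to 14.98 TPM in BS and 1.81 to 2.81 TPM in DSE animals. Heart muscle markers summed there to 0.140 to 152 TPM in BS and at most 0.127 TPM in DSE animals, apart only at values near the floor. In kidney, kidney epithelium markers summed to 6247 to 9267 TPM in BS and 4617 to 5193 TPM in DSE animals, and macrophage markers to 18.75 to 41.2 TPM in BS and 10.998 to 18.67 TPM in DSE animals. In heart, hepatocyte markers summed to 1.44 to 2.59 TPM in BS and 2.67 to 50.2 TPM in DSE animals. Their part in the differences was not tested.

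A test of whether the BS and DSE difference itself varied by organ passed for 1 of 58 members, RPL3L (limma interaction F, adjusted p = 0.0292), against 8.40% of all 16905 genes. In lung and spleen RPL3L lay below the 1 TPM filter of the single-organ tests, and log2(TPM + 1) holds its group difference near 0 there, so the interaction test is in part fixed by that floor. RPL3L differed by 0.49 log2 units in heart (limma adjusted p = 0.00335). In kidney it averaged 10.2 TPM in BS and 8.93 TPM in DSE animals, and in liver 4.65 TPM in BS and 5.84 TPM in DSE animals. The interaction call was lost without the mitochondrial genome and without any one of BS animals 1, 2 and 3 and DSE animals 1, 2 and 4.

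Most ribosomal proteins outside the name rule moved with the members in spleen and liver on the TPM scale. RPLP0, RPLP1, RPLP2, FAU and RACK1 were higher in spleen, by 0.69 to 0.88 log2 units, and RPLP0, RPLP1, RPLP2 and RACK1 were lower in liver, with log2 differences of -0.90 to -0.63. None of these calls was kept after median-ratio scaling. Between pig groups the same 5 genes were all higher in BS over organs, unlike the members, whose median was -0.05 log2 units. RPLP1, a protein of the stalk that recruits elongation factors, led at 0.66 ± 0.05 (log2, SE, limma adjusted p = 1.69e-05), and the other 4 differed by 0.31 to 0.45 log2 units. RPSA went against both patterns. Its log2 difference was 0.46 in spleen and 0.11 in liver, neither called. It was lower in heart at -0.81, a call lost after median-ratio scaling. Between pig groups RPSA was not called over organs (0.05 log2 units, limma adjusted p = 0.504). Genes of ribosome assembly showed 18 higher of 27 in spleen, with a median of 0.68, led by NPM1, FBL, DKC1 and NCL at 0.86 to 1.32 log2 units. In liver 20 of 27 were lower, with a median of -0.76. Over all genes, for this and the following lists, 37.0% were higher in spleen and 60.5% lower in liver. The medians of all genes were 0.31 and -0.76, so the assembly median in liver was close to that of all genes. FBL encodes the methyltransferase that modifies ribosomal RNA. After median-ratio scaling 5 of the assembly genes were higher and 1 lower in spleen and 2 were higher in liver. On that scale 20.4% of all genes were higher and 26.9% lower in spleen, and 19.6% higher and 30.7% lower in liver. RNA polymerase I, which makes ribosomal RNA, had 11 of 17 genes higher in spleen and 12 lower in liver, but 2 higher and 2 lower in spleen and 1 of each in liver after median-ratio scaling. A list of genes with TOP messages held translation factors and also HNRNPA1 and NAP1L1, which are not translation factors. It had 10 of 11 higher in spleen and 10 of 11 lower in liver. After median-ratio scaling 3 were higher in spleen and 2 lower in liver. PABPC1, the poly(A)-binding protein, was higher in spleen by 1.77 log2 units, and EEF1D, an exchange factor of elongation, had a log2 difference of -1.25 in liver. Of 14 tested genes that control TOP translation, 5 were higher in kidney and 9 lower in liver, against 29.4% and 60.5% of all genes and so close to them, and after median-ratio scaling 1 of 15 was higher in kidney and none lower in liver.

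Mitochondrial ribosomal protein genes followed another order. Of 67, 32 were higher in kidney and none lower, 2 were higher and 23 lower in liver, and 1 was higher and 9 lower in spleen. Over all genes 29.4% were higher in kidney, 60.5% lower in liver and 18.9% lower in spleen. After median-ratio scaling 49 of 66 were higher in heart and 55 lower in lung, against 22.0% and 18.1% of all genes. The cytosolic members had none higher and 3 lower in lung on that scale. Their summed TPM was 3860 ± 621 in kidney, 3464 ± 257 in heart and 2487 ± 95.9 in spleen (SD, n = 8 each). No test was made of the difference between the 2 families.

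Within an organ and pig group the members also varied together from library to library. After removal of the organ and group means, each member's log2 level was compared with the mean of the other members over the 40 libraries. The median Pearson r was 0.80 among 58 members, with quartiles of 0.68 and 0.86, and -0.11 among 12417 other named genes against the mean of all members. The libraries share composition and depth, so these values are descriptions. Among the 5 genes outside the members most like their mean were RPLP2 (Pearson r 0.81, Spearman rho 0.84), RACK1 (0.79, 0.80), ACP1 (0.76, 0.76) and EEF1D (0.75, 0.73).

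Small nucleolar RNA genes, which guide the modification of ribosomal RNA, lay inside 15 of 59 members on the same strand (25.4%), against 61 of 17256 other named genes (0.354%). RPL4 and RPL7A carried 5 each and RPL3 carried 3. Other genes overlapped 7 members on the same strand and 15 on the opposite strand, where reads may be counted for either gene.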

How the data were processed

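Illumina libraries after ribosomal RNA depletion and PacBio libraries were made from total RNA extracted with Trizol and acid phenol, per the labels. The authors deposited TPM per gene (35798) and transcript (94894), in which each library sums to 1000000. They also deposited counts of full-length reads per long-read transcript, raw by their whole values. The build susScr11 and the tools STAR 2.7.10a and Salmon 1.10.1 come from what is listed per the submitters' processing notes, which give no roles, and rtracklayer 1.58.0 wrote the annotation, per the file headers. Columns of a code that no label carries (20 gene, 20 transcript and 5 long-read) were not used, and DT samples were not analysed here.

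The members and all gene lists were chosen with earlier results of these data known. Genes averaging 1 TPM or more in a compared group were tested on log2(TPM + 1) with limma 3.58.1 (trend, Benjamini-Hochberg over all tested genes), so fold changes of low genes are understated. Usage used a pseudocount of 0.5 on genes with at least 5 TPM in every organ and transcripts with at least 5% in 1 organ. Full-length counts were summed per gene, by a read's own annotated transcript (51.9% of reads) or the only gene of its locus (35.9%), and tested with edgeR 4.0.16. The other reads were left out. Alternatives were pseudocounts, filters, scalings, DESeq2 1.42.0, a replicate block and leaving out each animal, and scaling to the median member was added after seeing the data. Steps were tested on simulated data. Named genes were the copies with their parents, the extremes of each comparison, the most and least abundant, those with called usage or most long reads, and up to 4 called genes per list.

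The title numbers were read as animals. Same-numbered BS and DSE libraries of an organ did not deviate together (correlations from -0.24 to 0.08), and libraries of 1 animal did so weakly (median correlation of organ pairs 0.12). Replicates of a group correlated at 0.951 to 0.989 in log2 TPM, and no 2 were identical. Short-read depth is unknown. A few genes are not reported here. No sequence is printed because no genome was used here.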

Additional observations from a re-analysis of the deposited data

Results flagged for a closer look

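RPL3L was the member whose BS minus DSE difference varied between organs (limma interaction F, adjusted p = 0.0292). It was higher in BS hearts by 0.49 log2 units, and its log2 differences were 0.17 in kidney and -0.27 in liver, neither called.

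Summed members in DSE livers came to 62486 TPM in animal 1, against 56916 to 57785 TPM in the other 3, a gap of 0.843931 of the range. The share of RPS24 TPM from transcripts with the 18- or 38-nt exon in BS spleens was 27.3% in animal 2, against 25.1% to 25.4% in the other 3, a gap of 0.843451 of the range. Both exceeded the 95% critical value of Dixon's test for 4 samples, which chance exceeds in about 1 of 20 groups.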

How the results depend on the processing

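Of 1134 recomputed values of named members, 1102 kept their direction and call, 32 kept the direction but lost the call, and none reversed. Many named members were picked by their calls in these same data, so this outcome was in part fixed in advance. The counts depended most on scaling, in part by construction, since scaling shifts every gene of a library. Under median-ratio scaling members higher and lower came to 21 and 1 (heart), 1 and 48 (kidney), 7 and 0 (liver), 0 and 3 (lung), and 7 and 2 (spleen). The mean sums came to 107797 in heart, 90288 in spleen, 83886 in liver, 67966 in lung and 49574 in kidney, and members lower in BS to 6 in kidney, 3 in lung and 6 in spleen. Without the mitochondrial genome 8 were higher and 4 lower in heart, 5 lower in kidney, 3 higher in lung and 2 lower in spleen. In BS hearts 10 were then higher and 11 lower, none varied by organ between pig groups, and the sums were 111262 in heart and 77204 in kidney. With no filter 3 were lower in BS heart and 6 in BS kidney. A pseudocount of 0.1 gave 1 member higher in liver, and a pseudocount of 5 gave 2 with a pig group difference that varied by organ. For long reads DESeq2 called 12 and a fit with no pig group term 8. The cause was not tested.

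With the replicate block 6 members were lower in BS kidney, members higher and lower in BS came to 16 and 4 in heart, 9 and 13 in lung, 7 and 13 in spleen, 5 and 26 in liver, and 12 and 25 over organs. Among the named members 1 call was lost, that of RPL22 in heart at -0.31. Same-numbered animals shared no more than a number. Leaving out 1 animal gave 11 to 21 higher and 2 to 5 lower in BS heart, 6 to 10 lower in BS kidney, 7 to 18 lower in BS spleen, and 0 to 1 with a difference that varied by organ. It gave 15 to 28 higher in lung. RPL7L1, RPL22 and RPL26L1 in heart and RPS9 in liver lost their BS and DSE calls without single animals. Depth of the short reads is unknown, and 10 unreplicated long-read libraries limit what the full-length counts show.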
